A study of Mus musculus with 12 samples.

Results

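The replicative helicase is the ring-shaped motor that opens DNA ahead of the polymerases in S phase. Its genes were described in fibroblasts of mouse embryos that carried Atm (Atm-WT) or lacked it (Atm-KO). The Atm kinase is activated by broken DNA and starts the checkpoint response. The set was 10 listed genes (Mcm2, Mcm3, Mcm4, Mcm5, Mcm6, Mcm7, Cdc45, Gins1, Gins2 and Gins4), found through the RefSeq accession of each array probe. Of these, 9 had 1 probe each, out of 17305 named genes on the arrays, and Gins1 is not analysed here. All 9 were well above background on all 12 arrays, with no outlier flag, so no filter removed a measured member.

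The samples formed 4 groups of 3, each sample on its own single-colour array. Nonirradiated Atm-WT and nonirradiated Atm-KO fibroblasts received no irradiation, while irradiated Atm-WT and irradiated Atm-KO fibroblasts received 4.32 Gy, and the cultures were kept for 72 h. The embryo age, strain, passage, Atm allele and dose rate are not given in the sources used here. Nothing in the labels says that replicates were independent cultures or embryos, and p-values then measure sample-to-sample spread alone, part of which may be technical.

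Processed signal at the 75th percentile ran from 379 to 757 per array, 55.3% to 64.5% of probes were well above background, and no spot was saturated. Precision is limited by there being 3 arrays per group. All 10 fibroblast markers listed were well above background on all 12 arrays, and their summed signal, relative to the 75th percentile, was 1235 to 1949. Of the skeletal muscle markers 2 of 4 were so on all 12, with a sum of 7.47 to 49.7. Of the epithelial markers it was 5 of 6, with a sum of 0.525 to 4.54, and of the endothelial markers 1 of 4, with 0.118 to 0.502. The part of culture composition in the values below was not tested. The brighter Atm probe was detected on 2 nonirradiated and 3 irradiated Atm-WT arrays, and on 0 nonirradiated and 1 irradiated Atm-KO arrays. Where that probe lies relative to the disrupted part of Atm is not known here. Nonirradiated samples sat at slide positions 1 and 3 and irradiated ones at 2 and 4, so slide position and irradiation cannot be told apart.

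In the textbook account, the proteins Mcm2 to Mcm7 form a ring that is loaded onto DNA at origins in G1, where it stays inactive. Kinases then bring in Cdc45 and the GINS complex, and the joined assembly (Cdc45, MCM and GINS) unwinds the parental strands. Most of these genes are transcribed in proliferating cells under E2F factors, and quiescent or arrested cells hold less of their transcripts. Damaged cells can restrain this transcription through p53, Cdkn1a (p21) and repressive E2F complexes.

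Promoter sequence was taken from RefSeq (GRCm38.p6) as 250 bases before to 50 after each annotated gene start, and is shown because the members' means shifted in 1 direction and E2F sites are a well-known element of this family's promoters. The table held 7 such promoters for 6 measured members (Mcm2, Mcm3, Mcm5, Mcm6, Mcm7 with 2 starts, and Cdc45). The E2F letters searched were TTTCCCGC, TTTGGCGC, TTTCGCGC and TTTGCCGC, on both strands, with overlaps allowed. Stretches that hold matches are given 5′ to 3′ on the gene's strand, with capitals marking the matched letters.
Mcm6, chr1:128359736-128359825, minus strand: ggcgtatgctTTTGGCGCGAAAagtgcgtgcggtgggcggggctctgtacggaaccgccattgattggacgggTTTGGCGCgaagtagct
Mcm5, chr8:75109349-75109443, plus strand: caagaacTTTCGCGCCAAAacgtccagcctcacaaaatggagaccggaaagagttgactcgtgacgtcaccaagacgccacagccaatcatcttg
Mcm7, chr5:138171969-138172058, minus strand: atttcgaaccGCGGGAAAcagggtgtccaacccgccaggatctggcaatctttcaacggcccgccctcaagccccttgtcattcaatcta
Mcm3, chr1:20820266-20820295, minus strand: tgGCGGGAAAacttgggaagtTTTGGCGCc

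The Mcm6 stretch spans 120 to 31 bases before the gene start and holds 3 matches, of which the first and second overlap on opposite strands. The Mcm5 stretch spans 160 to 66 bases before the start and holds 2 overlapping matches on opposite strands. The Mcm7 stretch spans 175 to 86 bases before the start with 1 match, and a further match lies 16 bases after the start, overlapping a CCAAT box. The Mcm3 stretch lies 17 to 46 bases after the start and holds 2 matches. At least 1 E2F match stood in the promoters of 4 of the 6 genes, against 2.26% of the 32851 RefSeq promoters of the same length. A CCAAT box (letters CCAAT, both strands) stood in 6 of the 6, against 37.4%, and a CHR element (letters TTTGAA or TTCGAA, both strands) in 3 of the 6, against 19.2%. Mcm2 and Cdc45 held no E2F match in these windows. These matches are letters in a window and no measurement of binding.

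**Figure D1:**
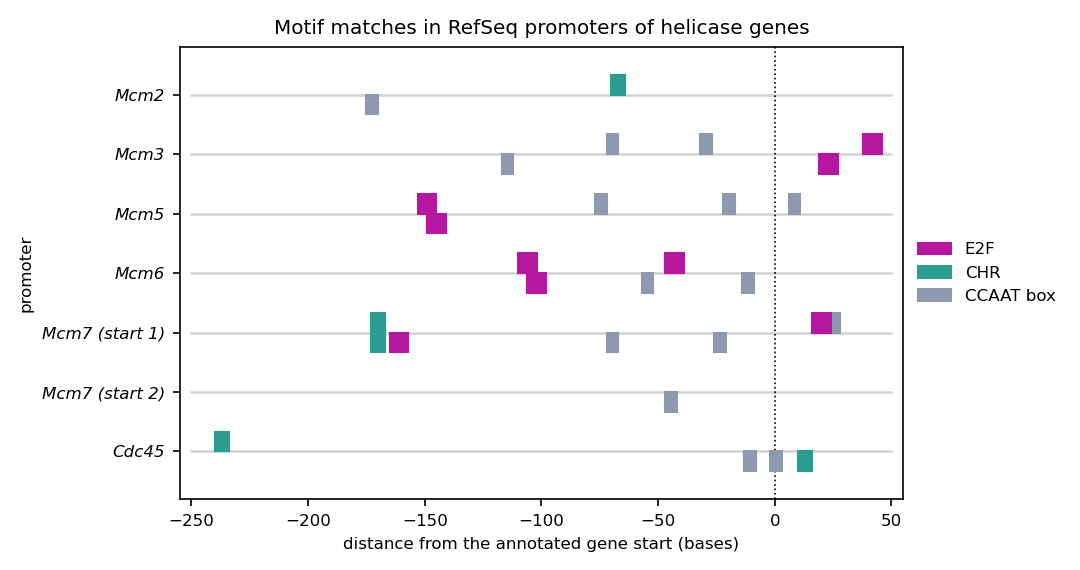
Matches to the E2F, CHR and CCAAT letters in 7 RefSeq promoters of 6 helicase genes, by distance in bases from the annotated gene start; boxes above a line are on the gene's strand, boxes below it on the opposite strand. E2F matches stand in the Mcm3, Mcm5, Mcm6 and first Mcm7 promoters, and each promoter holds at least 1 CCAAT box.

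The first comparison asked how helicase transcripts differed in Atm-WT fibroblasts 72 h after irradiation. All 9 measured members had lower means in irradiated than in nonirradiated Atm-WT cells, although Gins4 turned to 0.027 with normexp background correction. The median difference was -0.66 on the log2 scale, or 63.1% of the nonirradiated level. The median over all 18430 features tested was -0.02. Differences ran from -0.93 for Mcm6 to -0.19 for Gins4, and with normexp Mcm4 moved from -0.58 to -0.25 and Mcm7 from -0.30 to -0.086. None passed limma's test after adjustment over all features, in which 0.0217% of features were called lower, and 5 of the 9 had an unadjusted limma p under 0.05 in this direction, against 2.71% of features. In RNA from a whole culture, fewer cells in S phase and less RNA per cell cannot be told apart. Levels below are log2 processed signal minus the array's 75th percentile, differences are on that log2 scale with limma's standard error, and n = 3 arrays per group.

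Mcm2, the ring subunit that also chaperones histones, stood at 2.04, 2.20 and 1.98 in Atm-WT samples 1 to 3 without irradiation and at 1.12, 1.63 and 1.40 after irradiation. All irradiated values lay below all nonirradiated ones, and the difference was -0.69 ± 0.229 (limma's adjusted p = 0.441). Mcm3, which sits between Mcm5 and Mcm7 in the ring, stood at 0.56, 1.03 and 0.65 without irradiation and at -0.04, 0.30 and -0.04 after it. Its groups did not overlap, and its difference was -0.68 ± 0.232 (limma's adjusted p = 0.499).

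Mcm5, which flanks the gate through which DNA enters the ring together with Mcm2, stood at 1.70, 2.01 and 1.71 without irradiation and at 0.87, 1.27 and 0.92 after it. Its irradiated values were all lower, by -0.79 ± 0.266 in the mean (limma's adjusted p = 0.464), and its spread between pairs was small, with pair differences of -0.83, -0.75 and -0.80.

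Mcm4, Mcm6 and Mcm7 form the part of the ring first described as having helicase activity of its own. Mcm6 stood at 4.20, 4.14 and 3.54 without irradiation and at 3.42, 2.96 and 2.73 after it. Every irradiated value lay below every nonirradiated one, and the mean was 52.6% of the nonirradiated level (95% confidence interval 33.7% to 82.1%), a difference of -0.93 ± 0.295 (limma's adjusted p = 0.402). Mcm4 stood at 3.69, 3.07 and 3.00 without irradiation and at 2.99, 2.47 and 2.55 after it. Sample 1 was high in both groups, the lowest nonirradiated value of 2.997 barely cleared the highest irradiated value of 2.994, and the difference was -0.58 ± 0.274 (limma's adjusted p = 0.809).

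Mcm7 stood at 3.32, 3.65 and 3.48 without irradiation and at 2.79, 3.40 and 3.36 after it. These groups overlapped, with sample 1 low in both, and the difference was -0.30 ± 0.263 (limma's adjusted p = 0.99997).

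Cdc45, the factor that joins the loaded ring when an origin fires, stood at -1.93, -1.46 and -1.60 without irradiation and at -2.46, -2.06 and -2.24 after it. The groups did not overlap, and the difference was -0.59 ± 0.285 (limma's adjusted p = 0.825). Its processed signal of 91.6 to 301 over the 12 arrays was the dimmest among the members.

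Gins2 and Gins4 encode subunits of GINS, which locks Cdc45 to the ring. Gins2 stood at 1.35, 1.92 and 1.76 without irradiation and at 0.81, 1.24 and 0.99 after it, with no overlap and a difference of -0.66 ± 0.292 (limma's adjusted p = 0.736). Gins4 stood at 2.51, 2.73 and 2.41 without irradiation and at 2.18, 2.60 and 2.29 after it. Its groups overlapped, and its difference of -0.19 ± 0.218 was the smallest (limma's adjusted p = 0.99997). In Atm-WT cells the groups of 7 of the 9 members did not overlap, all with irradiated cells lower, against 5.7% of features.

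**Figure D2:**
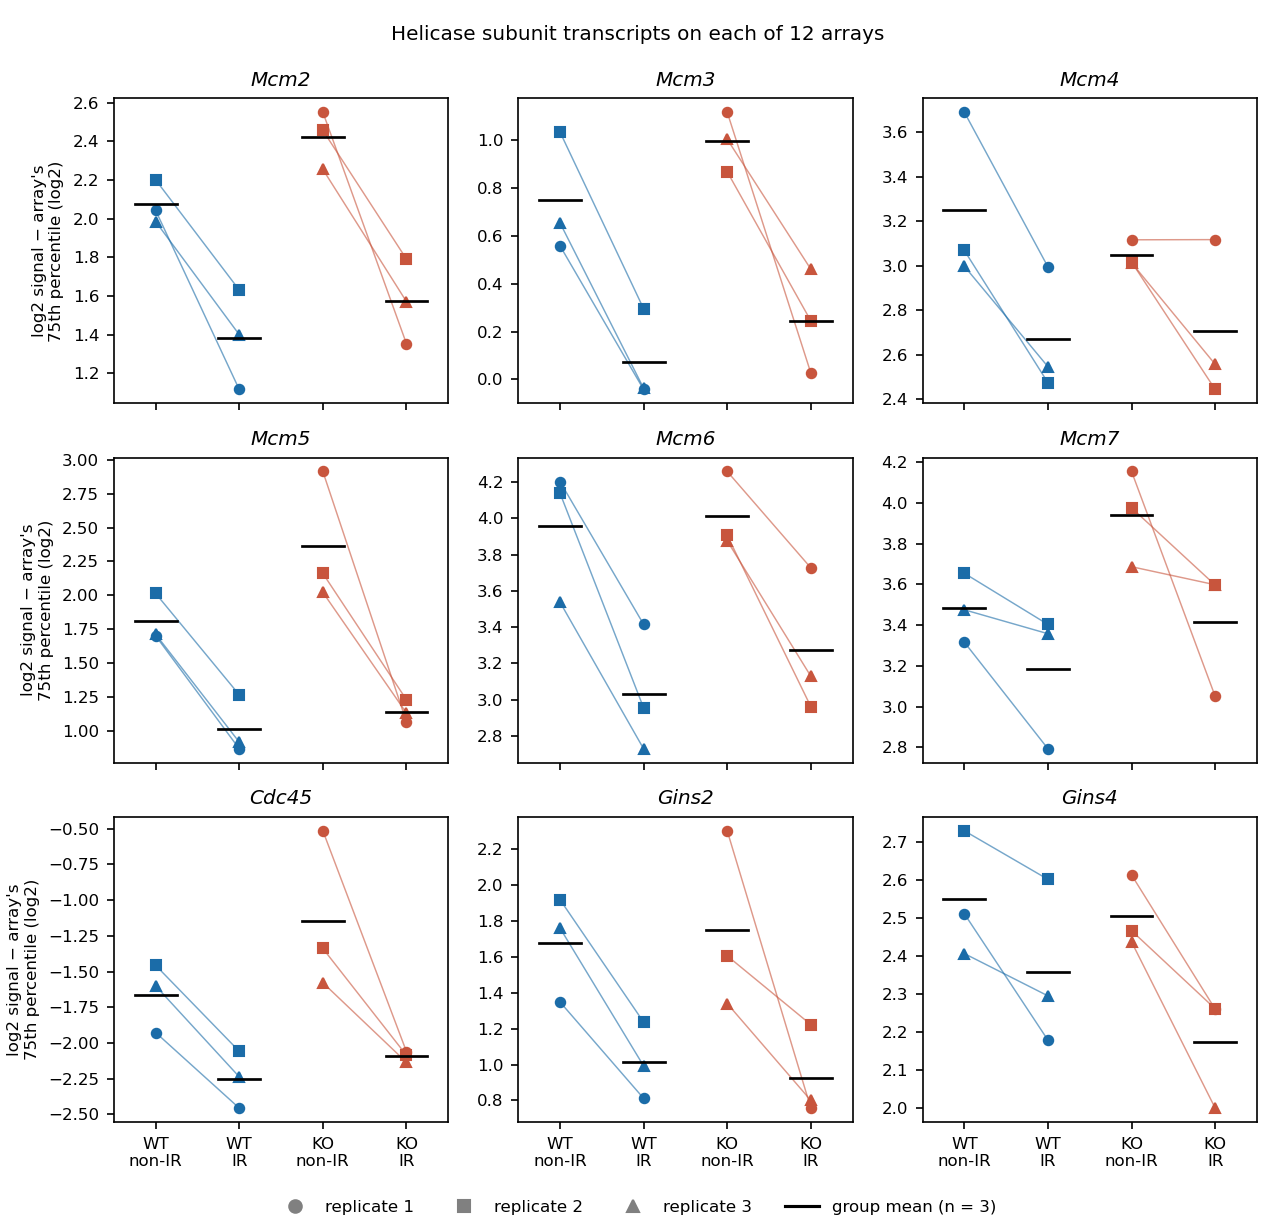
Level of each measured helicase gene on the 12 arrays, as log2 processed signal minus the array's 75th percentile; points are samples, thin lines join same-numbered samples of a genotype, black bars are means of 3, WT and KO are Atm-WT and Atm-KO, and IR is irradiated. The lines run downwards except for Mcm4 in Atm-KO pair 1, which is level; each panel has its own scale.

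Same-numbered nonirradiated and irradiated samples of a genotype deviated together from their group means, so the comparison was also made within pairs (replicate block). In this fit Mcm6 fell by 0.93 ± 0.183 on the log2 scale in Atm-WT cells, with limma's adjusted p = 0.0365, and it was the 1 member called, where 0.624% of features were called lower. Its pair differences were -0.79, -1.18 and -0.81. The call was lost when the samples of any 1 number were left out of both genotypes at once, with limma's adjusted p from 0.0881 to 0.406. It was also lost with normexp background correction (limma's adjusted p = 0.198), quantile normalization (adjusted p = 0.0679) or no filter on dim probes (adjusted p = 0.219). All 9 members were lower in all 3 Atm-WT pairs, as were 25.7% of features. The median over members was -0.60 in pair 1, -0.60 in pair 2 and -0.64 in pair 3, where the median over all features was -0.09, -0.01 and 0.03. By slide, the median over members was -0.60 on the slide with pairs 1 and 2 and -0.64 on the slide with pair 3.

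The second comparison made the same contrast in Atm-KO cells. All 9 members again had lower means after irradiation, with a median difference of -0.75, or 59.4% of the nonirradiated level, where the median over all features was -0.05. Mcm5 had the largest difference, and Gins4 (-0.33) and Mcm4 (-0.34) had the smallest. Their order turned with normexp background correction (-0.36 and -0.34) and with quantile normalization (-0.24 and -0.23). Cdc45 moved from -0.95 to -0.62 with normexp background correction, and Mcm4 from -0.34 to -0.23 with quantile normalization. None passed limma's adjusted test, in which 0% of features were called lower, and 6 of the 9 had an unadjusted limma p under 0.05, against 5.05% of features.

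Mcm5 stood at 2.91, 2.16 and 2.02 in nonirradiated Atm-KO samples 1 to 3 and at 1.07, 1.23 and 1.13 after irradiation. The irradiated samples were close together, nonirradiated sample 1 was far above the others, and the groups did not overlap. The irradiated mean was 42.8% of the nonirradiated one (95% confidence interval 28.7% to 64.0%), a difference of -1.22 ± 0.266 (limma's adjusted p = 0.179).

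Cdc45 stood at -0.51, -1.34 and -1.58 without irradiation and at -2.06, -2.09 and -2.13 after it. Nonirradiated sample 1 was again the highest, and the difference was -0.95 ± 0.285 (limma's adjusted p = 0.342). Gins2 stood at 2.30, 1.61 and 1.34 without irradiation and at 0.76, 1.22 and 0.80 after it, with no overlap and a difference of -0.82 ± 0.292 (limma's adjusted p = 0.456).

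Mcm2 stood at 2.55, 2.46 and 2.25 without irradiation and at 1.35, 1.79 and 1.57 after it, a difference of -0.85 ± 0.229 (limma's adjusted p = 0.278). Mcm3 stood at 1.12, 0.87 and 1.003 without irradiation and at 0.03, 0.24 and 0.46 after it, a difference of -0.75 ± 0.232 (limma's adjusted p = 0.359). For both genes every irradiated value lay below every nonirradiated one.

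Mcm6 stood at 4.26, 3.91 and 3.88 without irradiation and at 3.73, 2.96 and 3.13 after it, a difference of -0.74 ± 0.295 (limma's adjusted p = 0.552). Mcm4 stood at 3.12, 3.02 and 3.01 without irradiation and at 3.12, 2.44 and 2.56 after it, a difference of -0.34 ± 0.274 (limma's adjusted p = 0.849). Irradiated Atm-KO sample 1 was the high one for both genes, and for Mcm4 it matched the nonirradiated samples, so those groups overlapped.

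Mcm7 stood at 4.15, 3.98 and 3.69 without irradiation and at 3.05, 3.60 and 3.60 after it, and the difference was -0.52 ± 0.263 (limma's adjusted p = 0.681). Gins4 stood at 2.61, 2.47 and 2.44 without irradiation and at 2.26, 2.26 and 1.998 after it, a difference of -0.33 ± 0.218 (limma's adjusted p = 0.803). Neither pair of groups overlapped, and in all the groups of 8 of the 9 members, all but Mcm4, did not overlap, with irradiated cells lower, against 10.4% of features.

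**Figure D3:**
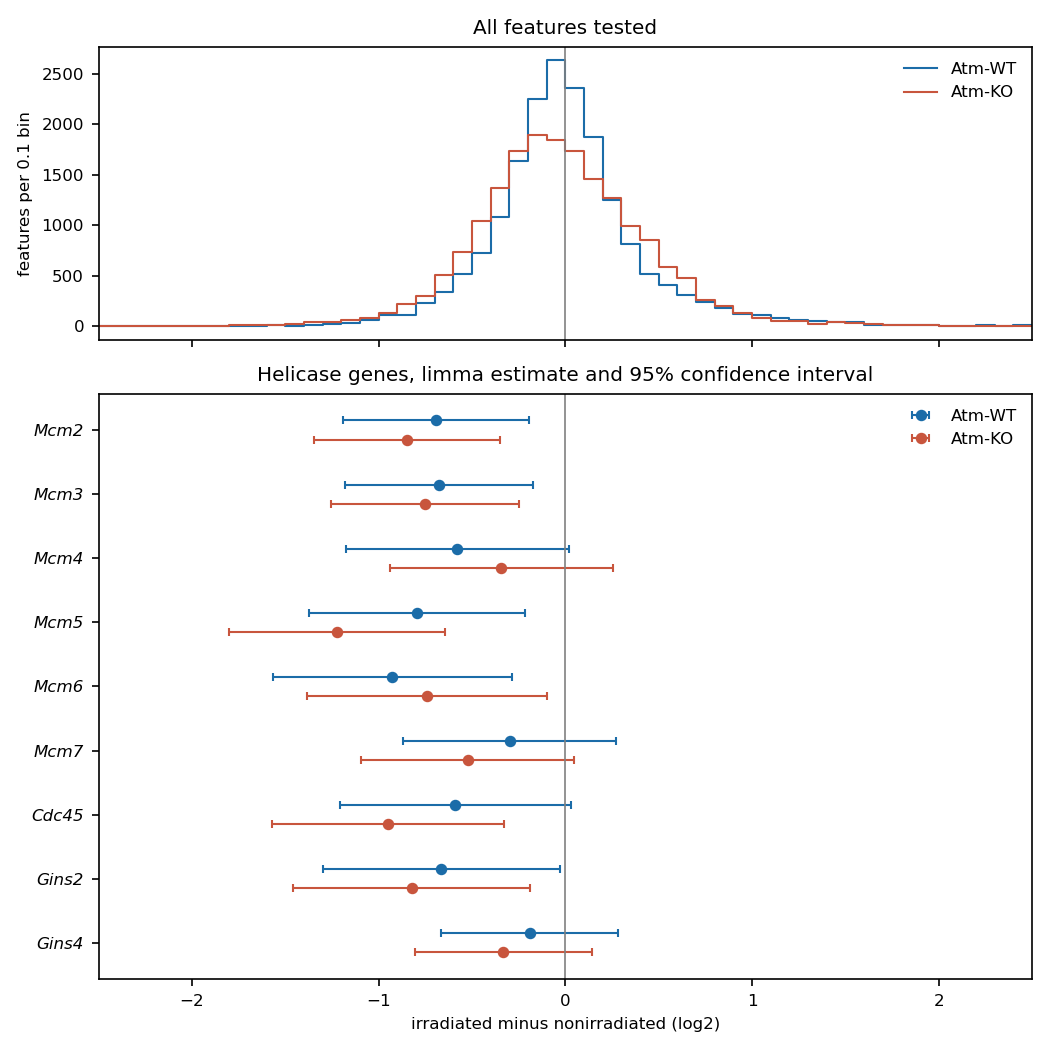
Irradiated minus nonirradiated difference (log2) in Atm-WT and Atm-KO cells; the upper panel counts all 18430 features tested per bin of 0.1, and the lower panel gives each helicase gene's limma estimate with its 95% confidence interval. Every helicase estimate is below 0 with this scaling (Gins4 in Atm-WT cells is above 0 with normexp background correction), while the medians over all features are -0.02 and -0.05.

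Within Atm-KO pairs, Mcm5 fell by 1.22 ± 0.220 on the log2 scale, with limma's adjusted p = 0.0309, and was the 1 member called, where 0.863% of features were called lower. Without the number 1 samples of both genotypes its difference was -0.91 with limma's adjusted p = 0.0928. Without the number 3 samples of both genotypes limma's adjusted p was 0.159, and with normexp background correction or no filter on dim probes it was 0.0786 or 0.216. Of the 9 members, 8 were lower in all 3 Atm-KO pairs, as were 23.4% of features, and 8 were lower in all 6 pairs of both genotypes, as were 14.3%. Over the 9 members and 6 pairs, 53 of 54 differences were below 0, where 46.7% to 60.9% of all features were below 0 per pair. The members share arrays and vary together, so these are not 54 independent values. The exception was Mcm4 in Atm-KO pair 1, where the irradiated sample was at 100.1% of the nonirradiated one.

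Atm-KO pair 1 stood apart. Its median over members was -1.10, against -0.62 in pair 2 and -0.54 in pair 3, and its median over all features was -0.27, against 0.03 and 0.01. In that pair Mcm5 was at 27.8%, Gins2 at 34.2% and Cdc45 at 34.3% of the nonirradiated level, whereas Mcm6 was at 69.2%. The 75th percentile of signal was 430 on its nonirradiated array and 708 on its irradiated array, and the part of this gap in the values was not tested. On the slide with Atm-KO pairs 2 and 3 the median over members was -0.56, and on the slide with pair 1 it was -1.10.

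**Figure D4:**
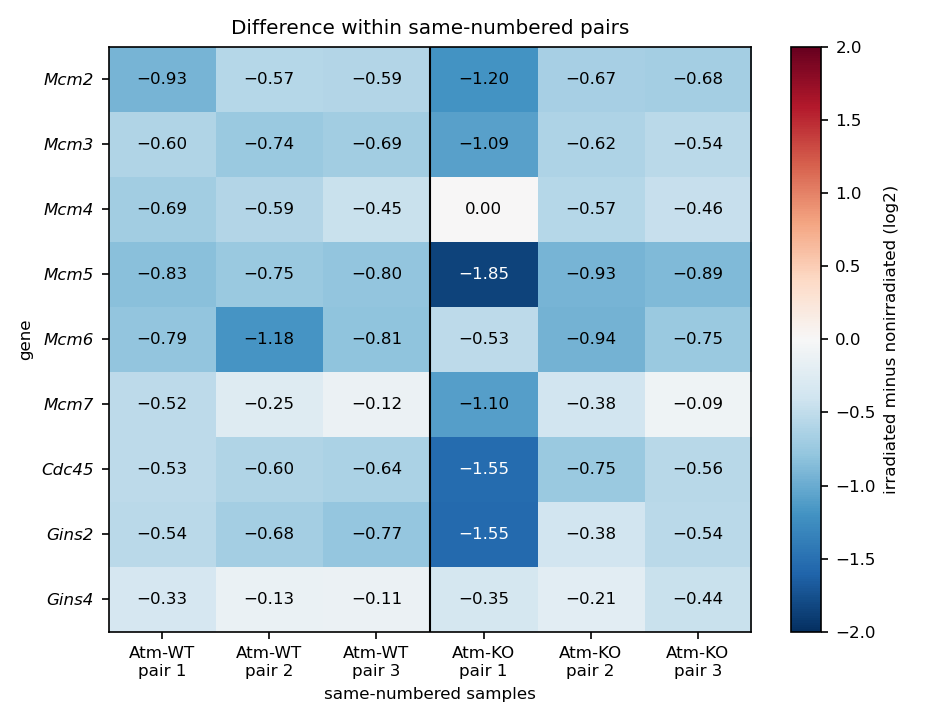
Irradiated minus nonirradiated difference (log2) of each helicase gene (rows) within each same-numbered pair (columns), written in the cells, with blue for lower after irradiation. The darkest cells are Mcm5, Cdc45 and Gins2 in Atm-KO pair 1, at -1.85, -1.55 and -1.55, and Gins4 is pale throughout.

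The third comparison asked whether the irradiation differences themselves depended on Atm. The difference between genotypes (Atm-KO minus Atm-WT) was below 0 for 7 of the 9 members, with a median of -0.16, where the median over all features was -0.06. It ran from -0.43 ± 0.376 for Mcm5 and -0.36 ± 0.403 for Cdc45 to 0.19 ± 0.417 for Mcm6 and 0.24 ± 0.388 for Mcm4. No member passed limma's test (adjusted p = 0.99992 for all 9), in which 0.00543% of features were called in either direction, and 0 members had an unadjusted p under 0.05, against 0.901% of features. The 95% confidence intervals together spanned -1.25 to 1.09, with the lowest limit from Mcm5 and the highest from Mcm6. The Mcm5 interval ran from -1.25 to 0.39, where its irradiation differences were -0.79 in Atm-WT and -1.22 in Atm-KO cells. The Mcm6 interval ran from -0.72 to 1.09, where its irradiation differences were -0.93 and -0.74. These arrays' power to detect a given difference between genotypes was not tested. With normexp background correction the value was 0.04 for Cdc45, -0.09 for Mcm4 and -0.06 for Mcm6, so their direction flips with that setting, and without irradiated Atm-KO sample 1 Mcm6 was at -0.04.

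The fourth comparison set Atm-KO against Atm-WT cells without irradiation. Means were higher in Atm-KO cells for 7 of the 9 members, with a median difference of 0.25, where the median over all features was 0.04. Mcm5 was 0.56 ± 0.266 higher, Cdc45 0.52 ± 0.285, Mcm7 0.46 ± 0.263 and Mcm2 0.34 ± 0.229, while Mcm4 differed by -0.20 ± 0.274. None passed limma's test (adjusted p from 0.706 to 0.995), in which 0.857% of features were called, and 0 members had an unadjusted p under 0.05, against 7.52% of features. The Mcm2, Mcm5 and Mcm7 groups did not overlap, with the lowest Atm-KO sample above the highest Atm-WT sample, against 8.29% of features.

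These values moved in both directions with the samples and the model. Without the number 1 samples Mcm5 differed by 0.23, Cdc45 by 0.07, Mcm7 by 0.27 and Mcm2 by 0.26, Gins2 turned from 0.07 to -0.37, and the median over members was 0.07. With slide as a term all 9 values were above 0, with Mcm5 at 0.89, Cdc45 at 0.81, Mcm7 at 0.30, Mcm2 at 0.34, Mcm6 at 0.77 (0.05 without that term) and Mcm4 at 0.23. With normexp background correction Cdc45 was at 0.15. Atm-WT samples 1 and 2 filled 1 slide and Atm-KO samples 2 and 3 another, so genotype and slide were largely confounded. The slide that held both genotypes had 1 sample of each per treatment, Atm-WT sample 3 and Atm-KO sample 1. On it the median difference over members was 0.57 without irradiation and 0.06 after it. With slide as a term, the genotype difference averaged over treatments rested on that slide alone, so these are not separate results. The summed signal of macrophage markers (7 of 8 listed were on the array, and 3 were above background on all 12) was 2.17 to 5.20 on Atm-WT arrays and 0.468 to 0.684 on Atm-KO arrays, and its part in these values was not tested.

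After irradiation, in the fifth comparison, means were higher in Atm-KO cells for 7 of the 9 members, with a median difference of 0.16 and a range from -0.19 for Gins4 to 0.24 for Mcm6. None passed limma's test (adjusted p = 0.99993 for all 9), in which 0.206% of features were called, and 0 had an unadjusted p under 0.05, against 5.23% of features. The groups of all 9 members overlapped, where 3.13% of features had Atm-KO above Atm-WT samples with no overlap. With slide as a term all 9 values were above 0, with Mcm6 at 0.95 and Gins4 at 0.015. That fit again rested on the slide that held both genotypes for its genotype difference averaged over treatments. On that slide Mcm6 differed by 0.997 between single samples, which is therefore not a separate result.

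In order of group means, Mcm2, Mcm3, Mcm5, Mcm6, Mcm7 and Cdc45 ran from nonirradiated Atm-KO through nonirradiated Atm-WT and irradiated Atm-KO to irradiated Atm-WT cells. Mcm4 and Gins4 had nonirradiated Atm-WT cells first, and Gins2 and Gins4 had irradiated Atm-KO cells last. For Mcm2 the means were 2.42 ± 0.151, 2.08 ± 0.112, 1.57 ± 0.219 and 1.38 ± 0.258 (SD, n = 3), in that order, and only the irradiated groups overlapped with each other. For Mcm5 they were 2.37 ± 0.480, 1.81 ± 0.177, 1.14 ± 0.0821 and 1.02 ± 0.217, and for Cdc45 -1.14 ± 0.558, -1.66 ± 0.241, -2.09 ± 0.0381 and -2.25 ± 0.199. Both genes had their largest spread in nonirradiated Atm-KO cells and overlapped between the irradiated groups.

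The members also varied together between samples of the same group, which is a description over 12 arrays that share slides and scaling. Deviations from group means correlated with a median r of 0.54 over the 36 pairs of members. Among Mcm2, Mcm3, Mcm5, Mcm7, Cdc45, Gins2 and Gins4, the 21 pairs had r from 0.40 to 0.94 with a median of 0.63. Mcm4 and Mcm6 correlated with each other at 0.82, but with the other 7 members their r ran from -0.76 to 0.21, with a median of -0.23. This division was made after the values were seen.

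Mcm4 and Mcm6 stood above the other 7 members on the arrays of both number 1 Atm-WT samples and irradiated Atm-KO sample 1. There the mean deviation of Mcm4 and Mcm6 was 0.34, 0.35 and 0.43, while that of the other 7 members was -0.16, -0.22 and -0.13. These were the brightest arrays, with 75th percentiles of 608, 757 and 708 against 379 to 513 on the rest. The reverse was measured on dimmer arrays, such as -0.29 against 0.13 in irradiated Atm-KO sample 2, -0.14 against 0.23 in irradiated Atm-WT sample 2 and -0.34 against -0.041 in nonirradiated Atm-WT sample 3. It did not hold on all dimmer arrays. In nonirradiated Atm-KO samples 2 and 3, Mcm4 and Mcm6 stood above the other 7 members, at -0.070 against -0.091 and -0.086 against -0.24. Mcm4 and Mcm6 correlated at 0.84, 0.93 and 0.85 under median centring, quantile normalization and normexp background correction. Their median r with the other members was then -0.05, -0.23 and 0.16, so the split from the others changed sign with normexp. The part of array brightness in this was not tested.

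**Figure D5:**
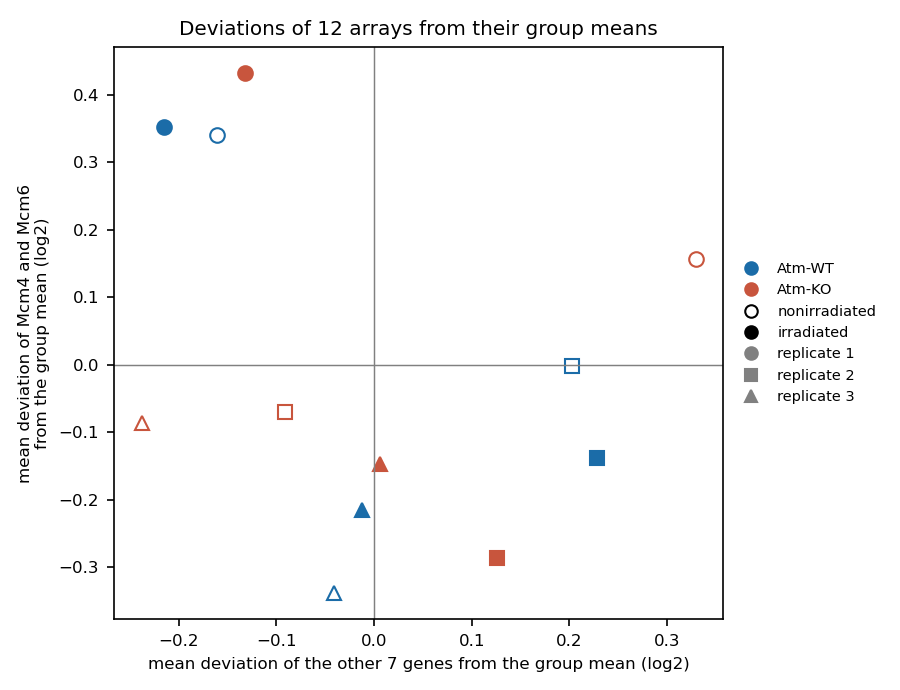
Mean deviation from the group mean (log2) of Mcm4 and Mcm6 against that of the other 7 helicase genes, 1 point per array; colour gives the genotype, open points are nonirradiated and filled ones irradiated, and shapes give the replicate. The 3 points at the upper left are the number 1 Atm-WT samples and irradiated Atm-KO sample 1.

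The genes most like the mean helicase profile were chosen as those with the highest Pearson r among 12797 named genes over the 12 arrays, so their values are a description. By level they were Ska1 (r = 0.984), which acts at kinetochores, Fanca (0.983), of the Fanconi crosslink repair complex, Birc5 (0.982), of the chromosomal passenger complex, and the mitotic kinases Plk1 (0.979) and Nek2 (0.978). Ska1 differed after irradiation by -1.20 ± 0.294 in Atm-WT and -1.67 ± 0.294 in Atm-KO cells, and Birc5 by -1.05 ± 0.289 and -1.47 ± 0.289. By deviation from group means the closest were Pfkfb1 (0.969), Pimreg (0.960), Borcs7 (0.940), Cdca5 (0.934) and again Fanca (0.933). Pfkfb1, a regulator of glycolysis, differed after irradiation by -0.36 ± 0.283 and -0.42 ± 0.283.

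Genes grouped under helicase loading, not all of which load the ring, were examined beside it. Of 12 tested (the origin recognition genes Orc1 to Orc6, Cdc6, Cdt1, Gmnn, Mcmbp, Mcm8 and Mcm9), 9 were below 0 after irradiation in Atm-WT and 8 in Atm-KO cells. Over all features the shares below 0 were 53.2% and 54.7%. The medians over the list were -0.34 and -0.30. None of the 12 passed without pairs. An unadjusted limma p under 0.05 with a lower mean was found for 2 and 3, against 2.71% and 5.05% of features. Within pairs, 0.624% of features were called lower in Atm-WT and 0.863% in Atm-KO cells. Gmnn, which binds Cdt1 and blocks reloading, differed by -1.14 and -0.94, and within pairs it fell in both genotypes (limma's adjusted p = 0.0124 and 0.0325). Cdt1, which brings the ring to origins, differed by -0.76 ± 0.257 and -0.69 ± 0.257, and Cdc6, its loading partner, by -0.61 ± 0.291 and -1.11 ± 0.291. No origin recognition gene was called in either fit.

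Of 15 genes that activate the helicase or travel with it, 14 were below 0 in Atm-WT and 13 in Atm-KO cells. Over all features the shares below 0 were 53.2% and 54.7%. The medians over the list were -0.53 and -0.35, and none of the 15 passed without pairs. An unadjusted limma p under 0.05 with a lower mean was found for 6 and 4, against 2.71% and 5.05% of features. Gins3, a further GINS subunit, was on this list and differed by -0.23 ± 0.303 in Atm-WT and -0.064 ± 0.303 in Atm-KO cells. Its groups overlapped in both genotypes. Within Atm-WT pairs Donson, which helps deliver GINS, fell by 0.87 (limma's adjusted p = 0.0318), and Pole2, a subunit of the leading-strand polymerase, fell by 0.90 (limma's adjusted p = 0.0472), while 0 were called within Atm-KO pairs, where 5 had an unadjusted p under 0.05. In Atm-KO cells Donson and Pole2 both differed by -0.54. Ticrr, which recruits Cdc45, differed by -0.86 ± 0.310 in Atm-WT and -0.53 ± 0.310 in Atm-KO cells. Timeless, of the fork protection complex, differed by -0.69 ± 0.254 and -0.75 ± 0.254. Mcm10 and Recql4, which act as the helicase starts, differed by -0.84 ± 0.253 and -0.79 ± 0.285 in Atm-KO cells and by -0.62 ± 0.253 and -0.53 ± 0.285 in Atm-WT cells.

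Of 14 cell cycle genes tested from a list of 15, 11 and 10 were below 0, with medians of -0.25 and -0.27. Over all features the shares below 0 were 53.2% and 54.7%. None of the 14 passed without pairs, where 3 and 4 had an unadjusted limma p under 0.05 and a lower mean, against 2.71% and 5.05% of features. Within pairs Ccna2, the S-phase cyclin, fell in both genotypes, with differences of -1.103 and -1.172 (limma's adjusted p = 0.0219 and 0.0238), and E2f7, a repressor of E2F target genes, did so with -0.92 and -1.003 (limma's adjusted p = 0.0369 and 0.0312). E2f8, its close relative, differed by -1.01 ± 0.246 and -0.77 ± 0.246 without pairs. Cdkn1a, a kinase inhibitor that p53 induces, rose within Atm-WT pairs by 0.98 (limma's adjusted p = 0.0354), and in Atm-KO pairs it differed by 0.59 (limma's adjusted p = 0.145). Whether these calls differ between genotypes was tested with the difference of irradiation effects, in which no gene of the 3 lists was called.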

How the data were processed

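The 12 arrays (Agilent design 014868) were labelled with Cy3, per the labels' protocols. The deposited files hold spot intensity in linear units, extracted with Feature Extraction 10.7.1.1 per the file headers, while version 11.0 of Agilent Feature Extraction is named in the submitters' processing notes. The authors' deposited matrix of log2 values was used as an alternative. Its centring was found from the values.

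From processed intensity, log2 minus each array's 75th percentile was taken, spots of a probe were averaged, and the brightest probe represented a gene. Features had to be well above background on every array of some group, which left 18430 for testing, of which 12806 were named. Names came from a RefSeq gene table of another build than the files' (mm9), and no probe was placed by coordinates. Promoter coordinates and distances are those of the RefSeq promoter table (GRCm38.p6) alone. A group-means model over all 12 arrays was fitted with limma 3.58.1 in R 4.3.3, with eBayes, Benjamini-Hochberg adjustment at 0.05 and 8 residual degrees of freedom. The replicate block left 4. Both fits were also run on simulated data in which same-numbered samples shared spread by design. The planted changes there were larger than nearly all members' differences. That run checks the code and does not test the pairing of these samples.

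Same-numbered samples' deviations correlated at 0.481 to 0.852 in Atm-WT and 0.269 to 0.510 in Atm-KO irradiation pairs, all over 0.1, so numbers were taken to pair the samples there. Nonirradiated Atm-KO sample 2 correlated more with an irradiated Atm-KO sample of another number (0.335) than with its own (0.269). The pairing is therefore an assumption, and the calls within pairs rest on it. Between genotypes the correlations were -0.217 to 0.179 without irradiation, where numbers were not taken as pairs, and 0.218 to 0.628 after it, where the block changed no member's call. The members, lists and tests were chosen with earlier results of these data known. Named genes are all members, Atm, the most alike genes by correlation, and up to 3 genes with the smallest p per list and comparison. The genes called within pairs and Gins3 were added after their values were seen. Alternatives were background correction, normalization, filter, probe rule, slide, samples fitted and leaving out replicates. The files as read here hold no mean spot signal, so normexp used the median.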

Additional observations from a re-analysis of the deposited data

How the results depend on the processing

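Under every alternative the median over the 9 helicase genes stayed within the spread between samples of its main value. That spread was 0.21 and 0.26 for irradiation in Atm-WT and Atm-KO cells, below the medians of -0.66 and -0.75 in size. It was 0.34 for the difference of effects (median -0.16), and 0.28 and 0.19 for genotype without and after irradiation (medians 0.25 and 0.16). There the spread exceeded the median, so a median of 0 would also have counted as unchanged. Leaving out single samples gave -0.78 to -0.54 for irradiated Atm-WT cells, -0.82 to -0.62 for irradiated Atm-KO cells, -0.27 to -0.03 for the difference of these effects, 0.17 to 0.39 for genotype without irradiation and 0.05 to 0.25 after it. Without pairs, no alternative called a member. With the replicate block, 1 member was called for irradiation in Atm-WT cells, as also with the deposited matrix or median centring in the blocked fit. In Atm-KO cells it was 1 with the block, 1 with quantile normalization, 1 with the deposited matrix and 1 without replicate 2 in the blocked fit, and 4 with median centring (Mcm2, Mcm3, Mcm5 and Cdc45). The block changed no other call among the members.

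With normexp background correction, with or without the block, the sign turned for Gins4 under irradiation in Atm-WT cells (0.027), and in the difference of irradiation effects for Cdc45 (0.037), Mcm4 (-0.086) and Mcm6 (-0.062, and from -0.041 without irradiated Atm-KO replicate 1 to 0.40 without nonirradiated Atm-WT replicate 3). The Mcm4 genotype difference without irradiation was 0.012 with normexp, 0.23 with slide as a term, and from -0.33 to 0.016 when single samples were left out (nonirradiated Atm-WT replicates 3 and 1), and that of Gins4 after irradiation was 0.015 with slide as a term. Other genotype differences turned too, among them Gins4 (0.14) with normexp and Mcm6 (-0.057) with quantile normalization, both without irradiation. The Mcm4 genotype difference after irradiation was -0.075 with normexp. The counts of members higher in Atm-KO cells therefore depend on the setting. The cause was not tested. Block fits with another setting were chosen after seeing the data.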
